A study of Mus musculus with 9 samples.

Results

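The 9 genes described here encode proteins that carry retinol, make retinoic acid from it, bind retinoic acid in the cell, respond to it or remove it. They were chosen by gene symbol from the 54532 genes of the deposited table, and all 9 were found there, as Aldh1a1, Aldh1a2, Aldh1a3, Rarb, Rbp4, Crabp1, Crabp2, Stra6 and Cyp26b1. RNA sequencing had been done on 3 libraries of each of 3 groups of C57BL/6 mouse cells. pECDCs are primary epicardium-derived cardiosphere cells without a transgene, grown from heart tissue of 6-week-old mice, at passage 0 by the sample titles and at passage 3 by the culture methods. iECDCs are cells of this kind that had received a lentivirus carrying human telomerase reverse transcriptase (hTERT) under the CMV promoter at passage 1, were selected with puromycin and were sequenced at passage 30 without treatment. The third group, SBT, is labelled as iECDCs at passage 30 treated for 3 days with SB431542, an inhibitor of the type I receptor of TGF-β, whereas the methods of the study name 10 μM SB431542 on an epithelial clone derived from pECDCs. Those methods cover more than 1 deposited series, so the clone may be a different sample. The study also describes such clones after a longer treatment than the 3 days of the labels. Whether the SBT cells carried hTERT, and whether they were 1 clone, therefore depends on which description applies to them. With this open, the inhibitor and the starting cells cannot be told apart in comparisons with this group. No vehicle-treated group was analysed here. Passage, hTERT and selection likewise cannot be told apart between iECDCs and pECDCs.

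Retinol travels in blood on the carrier RBP4, and the membrane receptor STRA6 takes it up from that carrier. Inside the cell, dehydrogenases oxidise retinol to retinal, and the retinal dehydrogenases of the ALDH1A family oxidise retinal to retinoic acid, which binds nuclear receptors on DNA and is hydroxylated by CYP26 enzymes. In the developing heart the epicardium is a known source of retinoic acid through Aldh1a2, and in adult hearts epicardial cells switch this gene on again after injury.

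The receptors bind DNA as pairs at direct repeats of a short half-site, named DR1, DR2 or DR5 by the number of bases between the copies. The half-site searched, on both strands, was AGGTCA with either purine as its opening letter and G or T before TCA. Of the 9 genes, 7 had an entry among the RefSeq promoters of the GRCm38.p6 assembly, with 12 promoters in all, each from 250 bases before to 50 after a transcription start. The promoters of Aldh1a3 and Crabp2 were not analysed here. 4 promoters are shown. That of Rarb (chr14:16575427-16575726, minus strand), at an internal start of the gene, held the single DR5 among the 12, with its half-sites in capitals, from 53 to 37 bases before the start. Those of Crabp1 (chr9:54764498-54764797, plus strand), Aldh1a2 (chr9:71215539-71215838, plus strand) and Aldh1a1 (chr19:20601718-20602017, plus strand, the downstream of its 2 listed starts) belong to the 3 members that were called both in iECDCs against pECDCs and in SBT against iECDCs.
Rarb: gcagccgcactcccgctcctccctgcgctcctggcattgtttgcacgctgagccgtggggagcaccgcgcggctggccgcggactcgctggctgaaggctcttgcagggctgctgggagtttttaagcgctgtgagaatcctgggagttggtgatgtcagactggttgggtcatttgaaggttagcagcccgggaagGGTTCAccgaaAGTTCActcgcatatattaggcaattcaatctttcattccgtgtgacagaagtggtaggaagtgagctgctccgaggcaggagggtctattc
Crabp1: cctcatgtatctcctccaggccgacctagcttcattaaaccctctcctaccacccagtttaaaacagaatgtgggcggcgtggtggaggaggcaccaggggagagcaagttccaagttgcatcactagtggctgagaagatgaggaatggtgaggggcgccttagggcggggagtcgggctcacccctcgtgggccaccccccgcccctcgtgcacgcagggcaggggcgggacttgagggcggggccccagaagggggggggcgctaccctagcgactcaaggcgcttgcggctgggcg
Aldh1a2: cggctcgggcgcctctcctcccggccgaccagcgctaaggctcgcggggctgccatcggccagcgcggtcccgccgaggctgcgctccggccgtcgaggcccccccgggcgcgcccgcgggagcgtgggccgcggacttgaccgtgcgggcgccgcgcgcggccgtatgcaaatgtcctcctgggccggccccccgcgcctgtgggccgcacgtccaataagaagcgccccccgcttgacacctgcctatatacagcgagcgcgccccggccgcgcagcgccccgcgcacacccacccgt
Aldh1a1: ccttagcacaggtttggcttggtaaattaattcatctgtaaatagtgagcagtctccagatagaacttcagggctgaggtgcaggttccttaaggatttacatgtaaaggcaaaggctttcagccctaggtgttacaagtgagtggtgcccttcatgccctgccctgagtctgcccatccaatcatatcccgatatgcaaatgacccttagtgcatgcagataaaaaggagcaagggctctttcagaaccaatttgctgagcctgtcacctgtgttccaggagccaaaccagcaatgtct

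A DR5 stood in 0.0974% of all 32851 promoters, a DR1 in 0.222% and a DR2 in 0.268%, and no member's promoter had a DR1 or DR2. The sequences also differed in their CG dinucleotides. Aldh1a2 had 50 of them in 300 bases, a number reached by 0.855% of all promoters, while the Aldh1a1 promoter shown had 1, and Crabp1 and Rarb had 17 each (median of all promoters 7). TGANTCA, the letters bound by AP-1, stood in 7.81% of all promoters. Among the 12 of the members it stood in 1 of 2 of Aldh1a1, 1 of 2 of Rbp4 and no other. CAGACA, which holds the 4 letters bound by SMAD proteins, stood in 21% of all promoters. It was found in 3 of the 12, all among the 4 promoters of Stra6. A match describes letters only, and such short motifs can stand anywhere in a genome.

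Total counts per library lay between 16568306 and 23951392. Pairs of replicates were compared by the chi-square per degree of freedom of their counts, a ratio of variances that is near 1 for sampling noise alone. In 2 groups a library stood apart from its replicates. SBT replicate 2 had values of 71.5 and 70.3 with the other SBT libraries, and iECDC replicate 3 had 30.8 and 24.9 within its group. Every other pair lay between 2.70 and 4.61. Each called result of a member, and each count of members, pathway genes and targets called, is therefore given with and without these libraries. No statement on separate animals or cultures was found for the 3 libraries. The methods mention 2 biological replicates per condition, while figure captions of the study give n = 3 for sequencing of pECDCs and iECDCs. The p-values therefore measure the spread between these libraries, which may be technical. In such bulk samples fewer cells of a type and less RNA per cell cannot be told apart. The label was checked against marker lists. Of 12 epicardial and mesothelial markers, 3 had a mean of at least 1 FPKM (a fragment count scaled to gene length and library size) in pECDCs, 2 in iECDCs and 5 in SBT, with Tbx18 between 18.8 and 41.8 FPKM in all libraries but Wt1 at most 0.396 FPKM and Krt8 at or under 3 counts. Fibroblast markers were abundant, with 7 of 9, 7 of 9 and 8 of 9 at 1 FPKM or more. Of 6 endothelial markers none reached that level, Myh6, Actn2 and Nppa of cardiomyocytes, Adipoq, Plin1, Lep and Cidec of fat cells and Itgam and Cd3e of blood cells were at or under 3 counts in every library. Other genes of these lists were not silent. Among blood markers Csf1r lay between 3.46 and 7.41 FPKM and Cd68 between 0.673 and 2.04, and Fabp4 of the fat cell list lay between 0.232 and 1.39. Tnnt2 and Tnni3 of the cardiomyocyte list lay between 0.0429 and 1.67 and between 0.277 and 0.858 FPKM. Tnnt2 was called in each comparison, at 1.36, -3.07 and -1.71 on the log2 scale in the order used below, and Cd68 in SBT against pECDCs (-0.86).

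In pECDCs, 3 of the 9 transcripts made up nearly all of the summed level. Per length, Crabp1 stood highest at 29.4 ± 0.816 FPKM (SD, n = 3, as for all means here), above Aldh1a1 at 18.2 ± 0.425 and Aldh1a2 at 5.5 ± 0.356. Rbp4 and Cyp26b1 followed with overlapping libraries, then Rarb, then Crabp2 and Aldh1a3, again overlapping, and Stra6 was at the floor, which is taken as 3 counts or fewer in each library of a group. Among iECDCs Aldh1a1 led at 10.8 ± 0.513 FPKM, followed by Aldh1a2 at 2.82 ± 0.349 and Crabp1 at 2.06 ± 0.744, whose libraries overlapped. Rarb and Cyp26b1 overlapped at the next level, as did Rbp4, Crabp2 and Aldh1a3 below them. Within the SBT group only Aldh1a1, at 28.1 ± 10.4 FPKM, was above 1 FPKM, and Rarb, Aldh1a2, Cyp26b1, Crabp1, Rbp4, Aldh1a3 and Crabp2 followed in that order with each neighbouring pair overlapping.

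**Figure D1:**
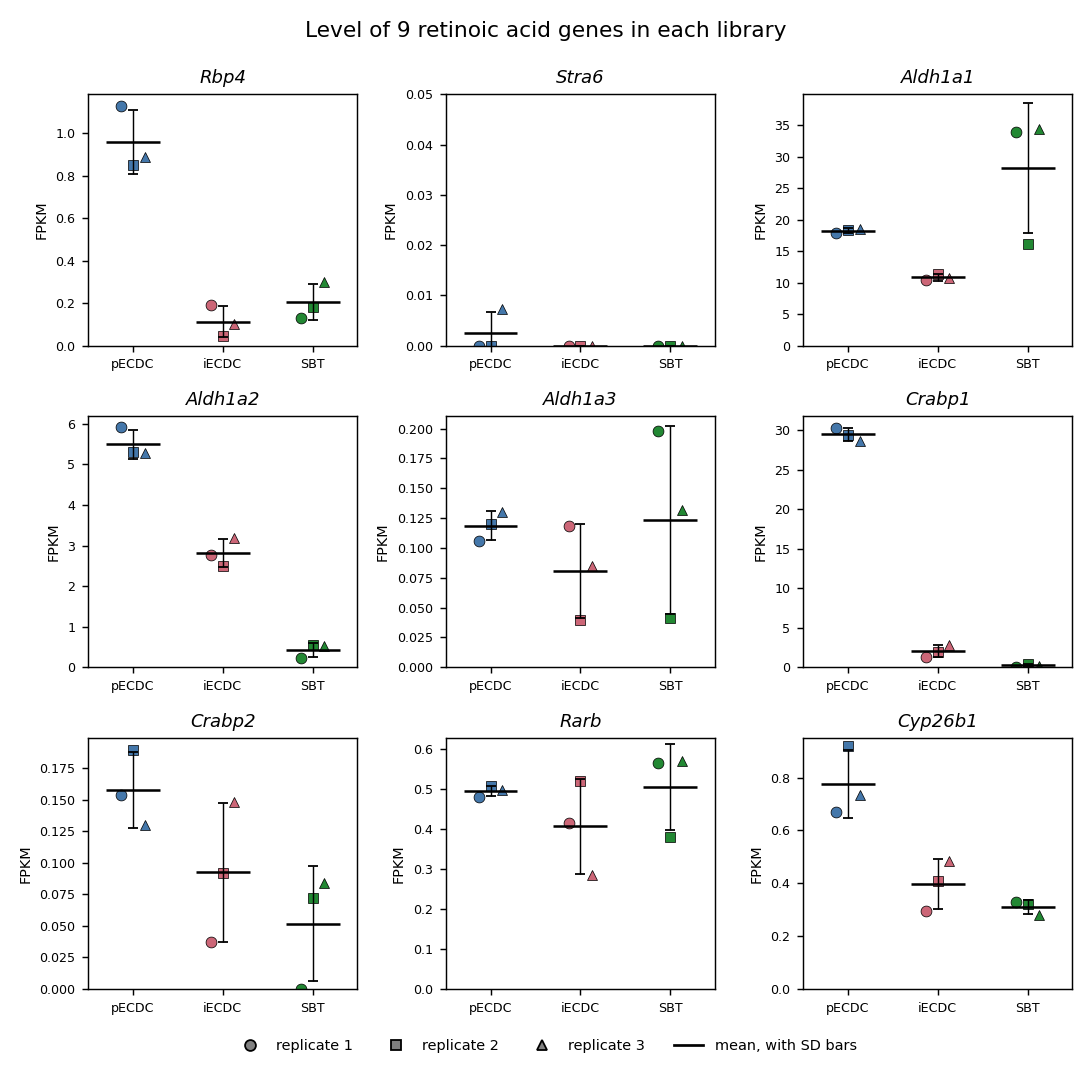
FPKM of each of the 9 genes in the 9 libraries, on linear axes that start at 0 and differ between panels. Points are libraries, shaped by replicate number, with the group mean and SD as a line and bars, and Crabp1 runs from 28.7 to 30.3 in pECDCs against at most 2.84 elsewhere.

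The first comparison asked how the immortalised line at passage 30 differed from the primary cells. Of 7 members with enough counts to test, 5 were lower in iECDCs (Aldh1a1, Aldh1a2, Rbp4, Crabp1 and Cyp26b1) and none was higher, at an adjusted p-value under 0.05. All p-values here come from the quasi-likelihood test of edgeR and were adjusted over all genes tested by the Benjamini-Hochberg method. Among all 13752 genes tested, 16.4% were called, 9.21% lower and 7.21% higher. The libraries of these 5 members did not overlap between the groups, as was so for 39.9% of all genes, 19.2% lower and 20.7% higher. The median log2 fold change of the 7 members was -0.98 and that of all genes -0.00. Without iECDC replicate 3 the same count of 5 was lower, while 31.7% of all genes were called.

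For SBT against iECDCs, 5 members could be tested. Aldh1a1 was higher and Aldh1a2 and Crabp1 were lower, against 30% of all 13559 genes called, 16% higher and 14% lower. Their libraries did not overlap, as for 46.5% of all genes, 23% higher and 23.5% lower. The members' median was -0.34 on the log2 scale (all genes 0.00). SBT against pECDCs had 7 testable members, of which Aldh1a2, Rbp4, Crabp1 and Cyp26b1 were lower and none was higher, with 34.8% of all 14015 genes called, 17% lower and 17.9% higher. These 4 did not overlap between the groups, as for 51.5% of all genes, 26.4% lower and 25.1% higher. The median of the 7 members tested was -1.31 and that of all genes 0.01. Without SBT replicate 2, the counts were 1 higher and 2 lower of 6 tested against iECDCs, beside 50.2% of all genes called, and 1 higher and 4 lower of 7 against pECDCs, beside 64.1%. Without iECDC replicate 3 they were 1 higher and 2 lower of 6 against iECDCs, beside 25.4%. Every 2 of the 3 comparisons share a group, so their values are set side by side below and no overlap between them was counted. Crabp2 and Stra6 had too few counts in every fit, and Aldh1a3 and Rbp4 in that of SBT and iECDCs.

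**Figure D2:**
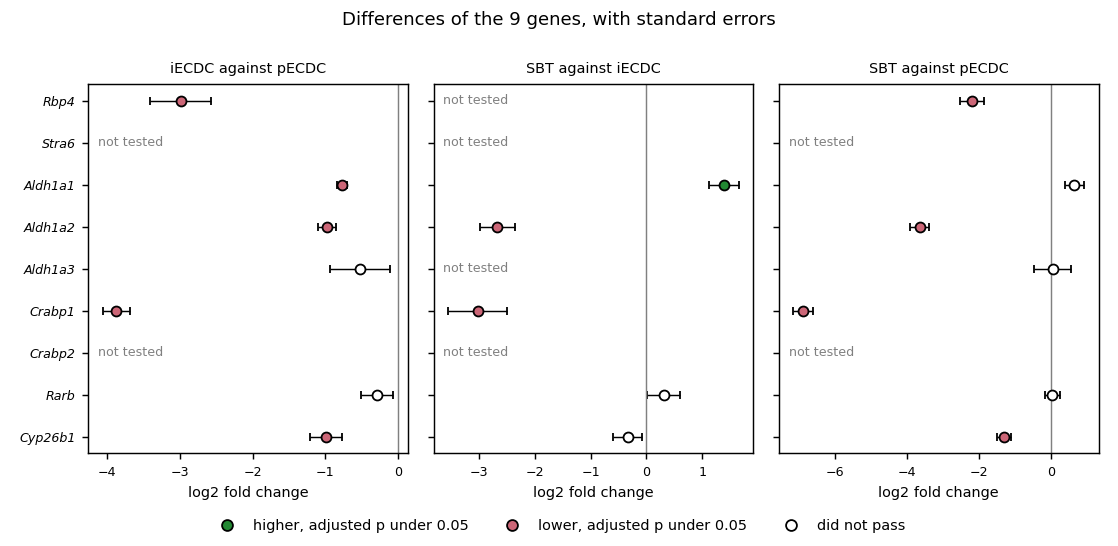
Log2 fold changes of the 9 genes in the 3 comparisons, with bars of 1 standard error and axes that differ between panels. Filled points passed an adjusted p-value of 0.05, and Crabp1 is farthest from 0 in each panel, at -3.88, -3.03 and -6.88.

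Rbp4 encodes the blood carrier of retinol (ENSMUSG00000024990, chr19:38116620-38125321, minus strand of GRCm38, as are all gene positions here). Its level was 1.13, 0.852 and 0.891 FPKM in pECDC replicates 1, 2 and 3, then 0.191, 0.0469 and 0.1 in iECDCs and 0.132, 0.183 and 0.299 in SBT. All pECDC libraries were above every library of the other two groups, which overlapped each other. These values rest on 22 to 36 counts in pECDCs and 1 to 7 elsewhere. In iECDCs it was lower by a log2 fold change of -2.99 (SE 0.419, adjusted p = 0.00184), and in SBT against pECDCs by -2.20 (SE 0.342, adjusted p = 0.00373). Without iECDC replicate 3 the first value was -2.90 (adjusted p = 0.000431), and without SBT replicate 2 the second was -2.12 (adjusted p = 0.000369).

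Stra6, which encodes the receptor for RBP4 (ENSMUSG00000032327, chr9:58063788-58153996, plus strand), had 1 count in all 9 libraries together, in pECDC replicate 3. A count of 0 allows up to 3 counts, which is at most 0.0335 FPKM in any of these libraries. Its transcript was thus not detectable at this depth, and no fold is given.

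The retinal dehydrogenases differed from each other in direction. Aldh1a1 (ENSMUSG00000053279, chr19:20492715-20643462, plus strand) was at 17.8, 18.4 and 18.5 FPKM in pECDCs, 10.4, 11.4 and 10.7 in iECDCs and 33.9, 16.2 and 34.3 in SBT. All iECDC libraries lay below all others, and SBT replicate 2 lay below the pECDCs while the other two SBT libraries lay above them. The log2 fold change of iECDCs against pECDCs was -0.77 (SE 0.0628, adjusted p = 9.04e-05), 1.70-fold lower, and -0.76 without iECDC replicate 3. With the SBT libraries added to the fit it was -0.76 with an adjusted p of 0.0938, so the call was lost, since the spread is then shared with SBT. In SBT against iECDCs it was 1.39 (SE 0.264, adjusted p = 0.00787), 2.62-fold higher, 1.36 without iECDC replicate 3 and 1.66 (adjusted p = 1.34e-06) without SBT replicate 2. Against pECDCs the SBT value was 0.64 (SE 0.267, adjusted p = 0.105). Leaving out SBT replicate 2 made it 0.91 with an adjusted p of 1.35e-12, so that 1 library decides this call. Aldh1a7, a close paralog with which reads could be shared, had 1.22 ± 0.171, 0.723 ± 0.158 and 1.51 ± 0.809 FPKM in pECDCs, iECDCs and SBT. Its log2 fold change in iECDCs was -0.76 (SE 0.226, adjusted p = 0.0512 in edgeR), just short of the threshold and past it in 5 of 15 alternatives, including both fits on FPKM. In SBT it was 1.06 against iECDCs (adjusted p = 0.0948) and 0.31 against pECDCs (adjusted p = 0.576), and both were called without SBT replicate 2, at 1.4 (adjusted p = 0.00379) and 0.66 (adjusted p = 0.0114).

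Aldh1a2, the family member of the embryonic epicardium (ENSMUSG00000013584, chr9:71215789-71296243, plus strand), had 5.91, 5.30 and 5.28 FPKM in pECDCs, 2.76, 2.5 and 3.19 in iECDCs and 0.227, 0.546 and 0.513 in SBT. The 3 groups did not overlap, in that order from high to low. Its log2 fold change in iECDCs was -0.98 (SE 0.124, adjusted p = 0.00106), and -1.07 without iECDC replicate 3. SBT stood lower than iECDCs by -2.68 (SE 0.315, adjusted p = 0.00138), a 6.42-fold difference, and the value was -2.60 without iECDC replicate 3 and -2.90 without SBT replicate 2. Lower still against pECDCs, SBT differed by -3.65 (SE 0.260, adjusted p = 0.000235), 12.5-fold, and by -3.87 without SBT replicate 2.

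Aldh1a3 (ENSMUSG00000015134, chr7:66390890-66427517, minus strand) had at most 0.198 FPKM, on 3 to 16 counts per library, and its groups overlapped. The log2 fold changes were -0.52 (SE 0.409, adjusted p = 0.418) in iECDCs and 0.04 (SE 0.508, adjusted p = 0.965) in SBT against pECDCs. The sign of the second value changed with the processing. Of the summed FPKM of the 3 dehydrogenases, Aldh1a2 held 22.1 to 24.9% in pECDCs, 17.9 to 22.8% in iECDCs and 0.66 to 3.26% in SBT. Aldh1a1 held 96.5 to 98.8% of the sum in SBT. The sum itself was 23.8 to 23.9 FPKM in pECDCs, 13.3 to 14.0 in iECDCs and 34.4, 16.7 and 35.0 in SBT.

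**Figure D3:**
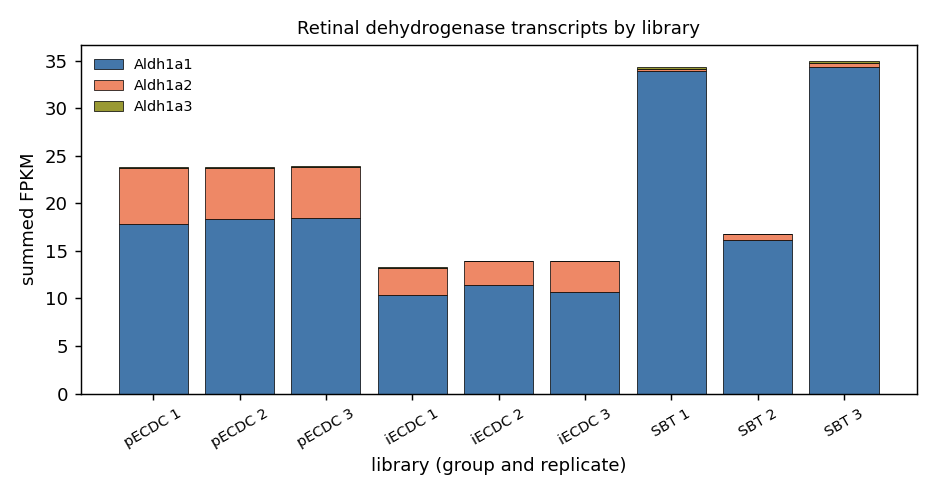
Stacked bars of the FPKM of Aldh1a1, Aldh1a2 and Aldh1a3 in each library, on a linear axis from 0. The Aldh1a2 segment is 5.28 to 5.91 FPKM in pECDCs and at most 0.546 in SBT, and SBT replicate 2 has a shorter bar than the other two.

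Crabp1, which encodes a cytosolic protein that binds retinoic acid (ENSMUSG00000032291, chr9:54764748-54773110, plus strand), had the largest difference of the members tested in each comparison. It was at 30.3, 29.4 and 28.7 FPKM in pECDCs, 1.36, 1.97 and 2.84 in iECDCs and 0.0711, 0.415 and 0.207 in SBT. The groups did not overlap. The counts behind these values were 469 to 596, 22 to 35 and 1 to 7. Its log2 fold change in iECDCs was -3.88 (SE 0.185, adjusted p = 3.34e-06), 14.8-fold lower, and -4.17 without iECDC replicate 3, the library with the highest iECDC level. In SBT it was -3.03 against iECDCs (SE 0.530, adjusted p = 0.00582), 8.17-fold lower, -2.75 without iECDC replicate 3 and -3.76 without SBT replicate 2. SBT against pECDCs gave -6.88 (SE 0.277, adjusted p = 3.74e-05), 118-fold lower, and -7.63 without SBT replicate 2, which had the highest SBT level. The size of this fold rests on the few SBT counts.

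Crabp2, the related binding protein that hands retinoic acid to the receptor (ENSMUSG00000004885, chr3:87948666-87953376, plus strand), had 0.154, 0.19 and 0.13 FPKM in pECDCs, 0.0375, 0.0920 and 0.148 in iECDCs and 0, 0.0719 and 0.0837 in SBT. These are 4 or 5 counts per library in pECDCs and at most 3 elsewhere, so it was not tested. Fabp5, which carries retinoic acid to another nuclear receptor, was the most abundant binding protein in iECDCs and SBT, with 34.4 ± 3.37 and 36.1 ± 5.13 FPKM, against 27.2 ± 0.0993 in pECDCs. It was higher in iECDCs by 0.33 on the log2 scale (SE 0.0749, adjusted p = 0.0183, 0.25 without iECDC replicate 3) and in SBT against pECDCs by 0.42 (SE 0.102, adjusted p = 0.0194, 0.31 without SBT replicate 2). Both calls were lost when any 1 pECDC library was left out.

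Rarb, a receptor gene that retinoic acid itself switches on in many cells, did not pass the test in any comparison (ENSMUSG00000017491, chr14:16430839-16819156, minus strand). Its level was 0.480, 0.506 and 0.496 FPKM in pECDCs, 0.414, 0.520 and 0.284 in iECDCs and 0.563, 0.379 and 0.568 in SBT, and all groups overlapped. The log2 fold changes were -0.29 (SE 0.225, adjusted p = 0.415) in iECDCs, 0.31 (SE 0.300, adjusted p = 0.452) in SBT against iECDCs and 0.03 (SE 0.213, adjusted p = 0.921) in SBT against pECDCs. The DR5 printed above thus stands in the promoter of a gene with 23 to 62 counts per library. In the GENCODE M21 annotation 3 of the 8 exons of its transcript Rarb-201 overlap exons of Top2b on the opposite strand, a gene with up to 3906 counts. The overlap is 1793 of the 3108 bases of that transcript, or 57.7%. The deposited gene length of Rarb is longer, at 5265 bases, and overlap outside Rarb-201 was not analysed here. Whether counting used the strand of reads, and how it treated the shared bases, is not given in the sources used here. The overlap may therefore have raised or lowered the Rarb values, which was not tested.

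Cyp26b1 encodes an enzyme that hydroxylates retinoic acid for removal (ENSMUSG00000063415, chr6:84571414-84593908, minus strand). It was at 0.670, 0.920 and 0.736 FPKM in pECDCs, 0.296, 0.409 and 0.486 in iECDCs and 0.330, 0.320 and 0.279 in SBT. All pECDC libraries were above the other 6, and iECDCs and SBT overlapped. The log2 fold change in iECDCs was -0.99 (SE 0.220, adjusted p = 0.0163), and -1.15 without iECDC replicate 3. This call was lost without pECDC replicate 2 (-0.85, adjusted p = 0.0778) or pECDC replicate 3 (-1.02, adjusted p = 0.0583). SBT was lower than pECDCs by -1.31 (SE 0.197, adjusted p = 0.00341), or -1.33 without SBT replicate 2, and its value against iECDCs was -0.34 (SE 0.269, adjusted p = 0.368). Cyp26a1 and Cyp26c1, which encode the other two enzymes of the family, were at or under 3 counts in every library.

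Of 46 other listed genes of the pathway, 28 had enough counts to test. In iECDCs against pECDCs 1 was higher (Fabp5) and 4 were lower (Lpl, Dhrs3 and Rarg among them), 17.9% of those tested beside 16.4% of all genes, with a median log2 fold change of -0.02. In SBT against iECDCs 10 were higher and 1 lower, 39.3% beside 30%, with a median of 0.37. In SBT against pECDCs 8 were higher and 1 lower, 32.1% beside 34.8%, with a median of 0.26. The counts depended on single libraries. Without iECDC replicate 3 the first was 8 of 29 tested, 27.6% beside 31.7% of all genes. The second was then 9 of 28, 32.1% beside 25.4%. Without any 1 pECDC library the first was 3, while all genes called fell from 2258 to between 1036 and 1065. Without SBT replicate 2 the second was 17 of 28 tested (13 higher and 4 lower) beside 50.2% of all genes. The third was then 23 of 29 (17 higher and 6 lower) beside 64.1%. Without SBT replicate 1 or 3 the second was 6 or 7, while all genes called fell from 4061 to 1765 or 1886. Leaving out iECDC replicate 1 or 2 made the second 5, beside 1707 or 1788 of all genes. Leaving out pECDC replicate 1 or 2 made the third 4, beside 2453 or 2522 of all genes, where all libraries gave 4881.

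**Figure D4:**
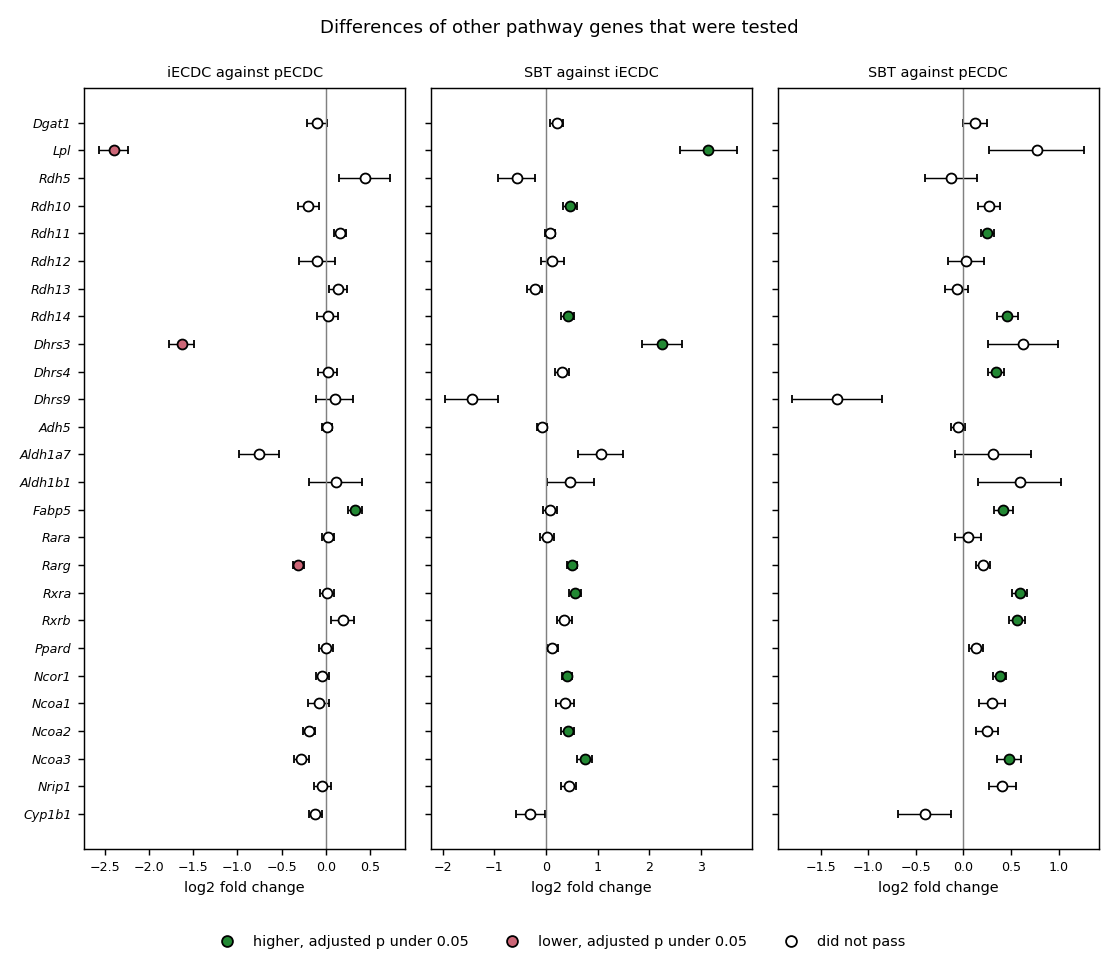
Log2 fold changes of 26 of the 28 other pathway genes that were tested, in the 3 comparisons, with bars of 1 standard error and axes that differ between panels. Lpl and Dhrs3 are below 0 in the first panel, at -2.40 and -1.63, and above 0 in the second, at 3.15 and 2.25.

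Among genes that act on retinol and retinal, Dhrs3 and Lpl were called in both of the first 2 comparisons. Dhrs3, whose product reduces retinal back to retinol, had 13.9, 15.3 and 16.2 FPKM in pECDCs, 5.86, 5.18 and 3.73 in iECDCs and 30.0, 10.3 and 29.8 in SBT. The iECDC libraries were below all others, and SBT replicate 2 was below the pECDCs. It differed by -1.63 in iECDCs (SE 0.144, adjusted p = 0.000140, -1.46 without iECDC replicate 3) and by 2.25 in SBT against iECDCs (SE 0.392, adjusted p = 0.00569, 2.60 without SBT replicate 2). Lpl, the lipase that frees fatty acids from lipoproteins and helps cells take up retinyl esters, had 1.74 ± 0.0550, 0.333 ± 0.0953 and 2.95 ± 1.80 FPKM. Its log2 fold changes were -2.40 (adjusted p = 3.62e-05) and 3.15 (adjusted p = 0.00602), and 3.59 without SBT replicate 2. In SBT against pECDCs neither was called, at 0.63 (adjusted p = 0.218) for Dhrs3 and 0.77 (adjusted p = 0.265) for Lpl, but without SBT replicate 2 both were, at 0.99 (adjusted p = 5.82e-11) and 1.21 (adjusted p = 2.54e-11). Rdh10, the main retinol dehydrogenase of embryos, stood at 2.76 ± 0.309, 2.42 ± 0.125 and 3.31 ± 0.201 FPKM and was called in SBT against iECDCs (0.47, adjusted p = 0.0340), a call that was lost without any 1 library other than SBT replicate 2.

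Retinoic acid receptor transcripts other than Rarb were present in all libraries. Rara had 11.6 ± 0.686, 11.8 ± 0.112 and 11.8 ± 2.16 FPKM in pECDCs, iECDCs and SBT and did not pass in any comparison. Rarg had 18.2 ± 0.416, 14.9 ± 0.595 and 20.9 ± 1.59, lower in iECDCs by -0.31 (SE 0.0607, adjusted p = 0.00948) and higher in SBT against iECDCs by 0.50 (SE 0.0995, adjusted p = 0.00913). The first of these was lost without any 1 pECDC library, and the second without iECDC replicate 1 or 2. Of the partner receptors, Rxra had 16.6 ± 0.314, 16.9 ± 1.78 and 24.8 ± 1.92 FPKM. It was called higher in SBT against iECDCs, by 0.56 (SE 0.117). In SBT against pECDCs it was higher by 0.59 (SE 0.0792, adjusted p = 0.00228, 0.64 without SBT replicate 2). Rxrb, at 12.9 ± 0.797, 14.9 ± 3.11 and 18.9 ± 1.32, was higher in SBT than in pECDCs by 0.56 (SE 0.0826, adjusted p = 0.00326, 0.54 without SBT replicate 2). Rxrg was at or under 3 counts in every library.

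Known targets of retinoic acid, 18 genes with the members left out, had 11 that could be tested. This list was chosen with earlier results of these data known. In iECDCs 4 were lower (Dhrs3 and Meis1 among them) and none was higher, 36.4% beside 16.4% of all genes, 9.21% lower and 7.21% higher. Their median log2 fold change was -0.25. In SBT against iECDCs 5 were higher (these 4 and Rarres1) and none was lower, 45.5% beside 30%, 16% higher and 14% lower, with a median of 0.44. Without iECDC replicate 3 the counts were 4 lower and 1 higher in the first, 45.5% beside 31.7% of all genes. In the second they were 5 higher and 1 lower, 54.5% beside 25.4%. Leaving out SBT replicate 2 gave 7 higher and none lower against iECDCs, 63.6% beside 50.2% of all genes called in either direction. Against pECDCs 2 were higher in SBT, Rarres1 among them, and Hoxb4 was lower, 27.3% beside 34.8% of all genes. Without SBT replicate 2 they were 6 higher and 3 lower, 81.8% beside 64.1%. Some targets, such as Dhrs3, are also among the 46 pathway genes, so both lists count them. Rarres1, named for its response to retinoids, had 2.55, 2.69 and 2.91 FPKM in pECDCs, 2.92, 3.90 and 4.81 in iECDCs and 23.5, 24 and 22.6 in SBT. Its SBT libraries lay close together and above all others, by 2.61 against iECDCs (SE 0.184, adjusted p = 0.000315) and 3.11 against pECDCs (SE 0.0977, adjusted p = 1.29e-05).

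The libraries were also compared at 11 target genes of TGF-β, whose receptor SB431542 inhibits. In SBT against iECDCs 7 were lower and 1, Tgfbi, was higher, beside 14% of all genes lower and 16% higher, and in SBT against pECDCs 7 were lower and none was higher, beside 17% and 17.9%. Without SBT replicate 2 they were 8 lower and 3 higher, and 8 lower and 2 higher, beside 50.2% and 64.1% of all genes called. Pmepa1, whose product restrains TGF-β signalling, had 57.5, 59.8 and 60.9 FPKM in pECDCs, 64.1, 66.4 and 70.5 in iECDCs and 2.54, 5.27 and 2.32 in SBT. Smad7, an inhibitor in the TGF-β pathway, had 8.16, 14.0 and 7.49 FPKM in SBT, against 24.8 to 26.1 in pECDCs and 33.5 to 35.3 in iECDCs. In both, as in Aldh1a1, Dhrs3 and Meis1, SBT replicate 2 lay between the other SBT libraries and the iECDCs, while for Rarres1 it did not. iECDC replicate 3 stood apart with a summed level of the 11 genes of 5005 FPKM, the highest of the 3 iECDC libraries, whose median was 3571. In iECDCs against pECDCs 3 of the 11 were higher and 3 lower, beside 16.4% of all genes called. Without iECDC replicate 3 they were 5 higher and 4 lower, beside 31.7%, and in SBT against iECDCs 7 lower and 1 higher, beside 25.4%. Epicardial and mesothelial markers also differed between the groups. In iECDCs against pECDCs 1 was higher and 3 lower of 6 tested, 66.7% beside 16.4% of all genes. In SBT against iECDCs 5 were higher of 7, 71.4% beside 30%, 16% higher and 14% lower. Against pECDCs 4 were higher and 1 lower of 8, 62.5% beside 34.8%. Without iECDC replicate 3 the first was 2 higher and 3 lower of 7 beside 31.7%, and the second 4 higher of 9 beside 25.4%. Without SBT replicate 2 the second was 6 higher and 1 lower of 7 beside 50.2%, and the third 6 higher and 2 lower of 8 beside 64.1%. The summed level of the epicardial list was 42.2 to 44.2 FPKM in pECDCs, 49.2 to 58.7 in iECDCs and 67.2 to 76.0 in SBT. Most of it was Tbx18 and Krt19, with means of 19.6 and 19 in pECDCs, 22.4 and 30 in iECDCs and 34.8 and 28 in SBT. The sum therefore does not describe the list as a whole. In iECDCs against pECDCs Krt19 was the marker called higher, while Upk1b, Bnc1 and Sema3d were lower. Fibroblast markers had 1 higher and 5 lower of 8, 4 higher and 1 lower of 8 and 3 higher of 8 in these comparisons. Those are 75%, 62.5% and 37.5%, beside 16.4%, 30% and 34.8% of all genes, the last made up of 17.9% higher and 17% lower. Without iECDC replicate 3 the first was 2 higher and 6 lower and the second 4 higher and 1 lower, beside 31.7% and 25.4%. Without SBT replicate 2 the second was 6 higher and 1 lower and the third 6 higher and 2 lower, beside 50.2% and 64.1%. Their summed levels were 2037 to 2092 FPKM in pECDCs, 1977 to 2371 in iECDCs and 1573 to 2302 in SBT. The part of these markers in the members' results was not tested.

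**Figure D5:**
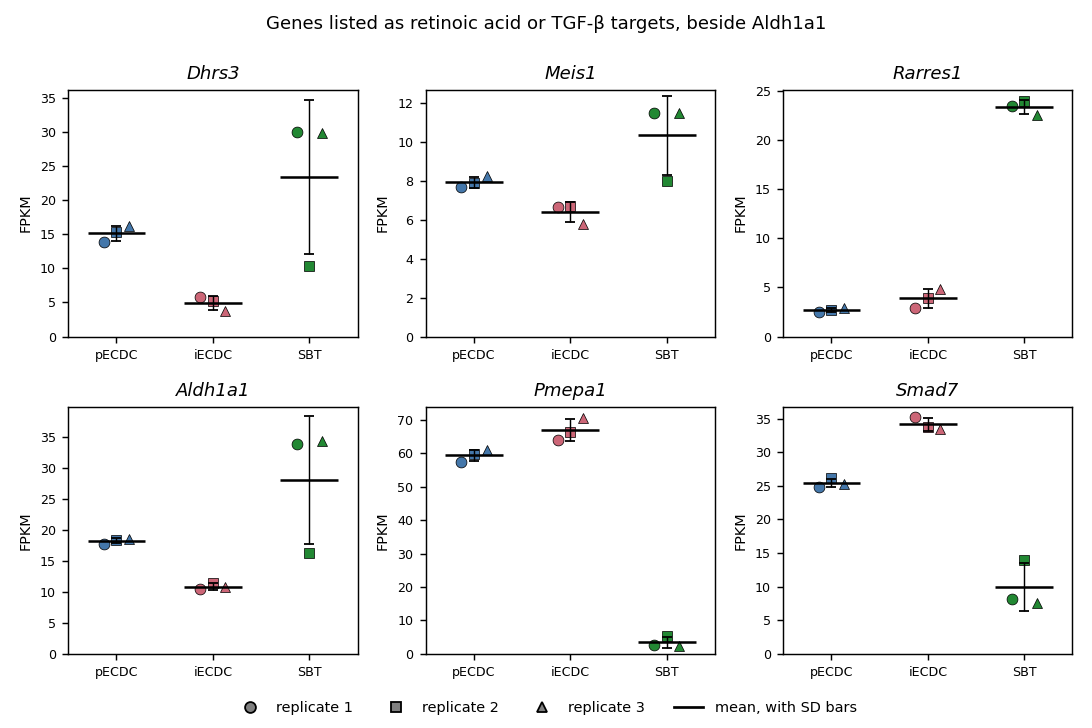
FPKM of Dhrs3, Meis1 and Rarres1 (listed as retinoic acid targets), Aldh1a1, and Pmepa1 and Smad7 (listed as TGF-β targets) in the 9 libraries, on linear axes from 0 that differ between panels. Points are libraries, shaped by replicate number, with the group mean and SD, and SBT replicate 2 lies on the iECDC side of its group for all genes shown but Rarres1.

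The genes whose pattern over the 9 libraries was most like that of each called member were named by Pearson's r of log2(FPKM + 1), among 7834 genes with a mean of at least 5 FPKM in a group. For Aldh1a1 they were Man2a1 (r = 0.994), Ccdc80 (0.992) and Bcl9l (0.992), and for Aldh1a2 Timp3 (0.993), Chst11 (0.992) and B3galnt2 (0.990). Crabp1 was most like Scel (0.994), Rps4l (0.987) and Efnb1 (0.981). The nearest to Cyp26b1 were Efnb1 (0.958), Scel (0.956) and Isg15 (0.942). Rbp4 was most like Renbp (0.982), Fam189b (0.967) and Efemp1 (0.967). The 9 points fall into the 3 groups and share their libraries, so these values describe levels of the groups and were not tested.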

How the data were processed

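RNA sequencing of 9 libraries was used, grouped by the sample labels. The authors deposited raw read counts per gene. They also deposited FPKM values, in which each count is scaled by gene length and by 1 constant per library. Per the labels the authors used TopHat2 2.0.9, Bowtie2 2.0.6 and the mm9 build, but gene positions in the table were those of GRCm38 for 53462 of 54532 genes (7 of the 9 members) by GENCODE M21. The counting program is not given in the sources used here. Authors' fold changes and p-values, made with DESeq, were not used.

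Differential expression was tested on the counts in edgeR 4.0.16, run in R 4.3.3 (TMM, filterByExpr with a minimum count of 10 and minimum total of 15, quasi-likelihood test, Benjamini-Hochberg adjustment over all genes), with only the libraries of both compared groups in a fit. A gene was called at an adjusted p-value under 0.05. Standard errors were obtained from the fold change and the F statistic. The members and gene lists (46 other pathway genes, 18 retinoic acid targets, 11 TGF-β targets, and markers of epicardium, fibroblasts, endothelium, blood cells, cardiomyocytes and fat cells) were chosen with earlier results of these data known. Named genes are the members, listed genes, the 3 genes most like each called member and genes overlapping a member. Single results of some listed genes are left out here, and counts over the lists include them. Total counts were 16568306 to 23951392. The floor of 3 counts covers counting error only. Promoters came from RefSeq (GRCm38.p6).

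Alternatives were RLE and upper-quartile normalization, DESeq2 1.42.0, no filter, a filter of 10 counts that each library had to reach, 1 fit of all 9 libraries, a replicate block, leaving out each library, limma 3.58.1 on log2(FPKM + 1) or log2(FPKM + 0.1), and a log2 fold change of at least 1. Figures were drawn with matplotlib 3.10.9.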

Additional observations from a re-analysis of the deposited data

How the results depend on the processing

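The calls of the members kept their side of the threshold under RLE, upper-quartile normalization, DESeq2, the FPKM-based fits and without either library that stood apart, except that Aldh1a1 in SBT against pECDCs was called without SBT replicate 2 (0.91) and when low counts were kept (0.61, adjusted p = 0.0471). Calls were lost for Aldh1a1 in iECDCs with all 9 libraries in the fit and for Cyp26b1 without pECDC replicate 2 or 3. The number of members called in iECDCs was 5, and 4 to 5 with 1 library left out, in SBT against iECDCs 3 and 3 to 3, and in SBT against pECDCs 4 and 4 to 5. With a log2 fold change of at least 1 it was 2 in iECDCs. With at least 10 counts in every library it was 1 in both comparisons of SBT, since genes low in SBT were then not tested. Values that changed sign, none of them called, were Aldh1a3 in SBT against pECDCs (-0.01 with the replicate block, -0.03 with limma on log2(FPKM + 0.1), and -0.48 to 0.48 without single libraries) and Rarb there (-0.07 to 0.21 without single libraries, below 0 at -0.07 and -0.06 without SBT replicate 3 or 1). The number of other pathway genes called was 3 in iECDCs with all 9 libraries, 3, 3 and 0 in the 3 comparisons with a log2 fold change of at least 1, and 3 to 8, 5 to 17 and 4 to 23 with 1 library left out. All genes called numbered 2258, 4061 and 4881, then 512, 1434 and 1330 with a log2 fold change of at least 1, 671 in iECDCs with all 9 libraries, and 1036 to 4467, 1707 to 7001 and 2453 to 9188 with 1 library left out. The causes were not tested.

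With the replicate number as a block, 5, 3 and 4 members, 5, 8 and 8 other pathway genes and 1791, 3038 and 3886 of all genes were called, and the block changed no call of a member. The numbers did not pair the libraries, as deviations of same-numbered libraries correlated at -0.18 to 0.03. Depth limits the genes with few counts, which are Crabp2, Stra6, Aldh1a3, and Rbp4 outside pECDCs.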

Other observations

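Further listed genes of retinoid metabolism were low or varied within a group. Bco1, whose enzyme splits beta-carotene into retinal, had a mean of 0.218 ± 0.0627 FPKM in pECDCs, 0.0900 ± 0.0114 in iECDCs and 0.0210 ± 0.00199 in SBT (SD, n = 3), and was at or under 3 counts in every SBT library. Adh7, an alcohol dehydrogenase active on retinol, had 0.0754, 0.0398 and 0.0792 FPKM in pECDC replicates 1, 2 and 3 and was listed at 0 in the 3 SBT libraries. Both had too few counts to test. Cyp1b1, a cytochrome P450 that can act on retinol and retinal, was the most abundant transcript of the 46 other pathway genes at 222 ± 10.2, 207 ± 12.0 and 166 ± 77.8 FPKM. Its SBT libraries were at 119, 256 and 124, with replicate 2 above all pECDC and iECDC libraries and the other two below them, and with all libraries it was not called by edgeR in any comparison. Without SBT replicate 2 it was called at -0.76 (adjusted p = 0.000271) against iECDCs and -0.86 (adjusted p = 1.62e-11) against pECDCs, and without iECDC replicate 3 at -0.14 (adjusted p = 0.0298) in iECDCs against pECDCs. Dhrs9 had 0.240, 0.877 and 0.233 FPKM in SBT, against 1.11 to 1.19 in pECDCs and 0.882 to 1.66 in iECDCs, with log2 fold changes of -1.33 (adjusted p = 0.0648) and -1.44 (adjusted p = 0.0624). In each of these comparisons 7 of 15 alternatives called it, DESeq2 and both limma fits among them, and without SBT replicate 2 the values were -2.28 (adjusted p = 2.75e-08) and -2.39 (adjusted p = 0.000402).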
